A study of Mus musculus with 16 samples.

Results

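Bdh1, Oxct1, Acat1, Slc16a1, Slc16a3 and Slc16a7 were examined in mouse heart as the genes of ketone body use and monocarboxylate transport. They were found by matching their symbols to the Ensembl identifiers of the count table, which gave 6 of 55487 genes, and all 6 passed the filter on low counts that left 18275 genes for testing. Poly(A) RNA from the apex of the heart was sequenced in 16 mice, 4 in each of 4 groups, and each library is a separate mouse according to the sample titles. The study asked how loss of Cardinal, a long noncoding RNA annotated as Gm12295, changes the response of the heart to pressure overload.

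The Ctrl groups held mice labelled WT, and the KO groups held mice labelled CARDINAL-KO, made with CRISPR/Cas9. The sources name no cell-type-specific driver for this deletion, and RNA came from whole tissue, so a difference between genotypes cannot be assigned to heart muscle cells alone. Mice had either transverse aortic constriction (TAC), in which a ligature narrows the aorta and the left ventricle pumps against a higher pressure, or a sham operation without the ligature. Hearts were collected 4 weeks after surgery, and only male mice were used. Age and strain background are not given in the sources used here. The text names each group by genotype and operation, such as KO TAC.

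Ketone bodies are made mainly in liver during fasting and are burned in other organs, with heart among the most active users. They cross the cell membrane on monocarboxylate transporters, which carry lactate, pyruvate and ketone bodies together with a proton and can run in either direction. Inside mitochondria, Bdh1 oxidizes 3-hydroxybutyrate to acetoacetate, Oxct1 transfers coenzyme A from succinyl-CoA to acetoacetate, and the thiolase Acat1 splits the resulting acetoacetyl-CoA into acetyl-CoA for the citric acid cycle. Acat1 also serves the breakdown of isoleucine. Among the transporters, Slc16a1 encodes MCT1, the broadly expressed form, Slc16a7 encodes MCT2, a form with high affinity for its substrates, and Slc16a3 encodes MCT4, known for lactate export from cells with high glycolysis.

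Across the 4 groups the 6 genes moved in different directions. Slc16a3 rose and Slc16a7 and Acat1 fell after TAC in both genotypes. Bdh1 rose and Oxct1 fell in both as well, but these changes passed the test in KO only. For none of the 6 genes did a difference between the genotypes in the response to TAC pass it. Slc16a1 passed the test in no comparison. Of the 6, Slc16a3 alone passed the test between the genotypes after TAC, and it was higher in KO. That call was lost in 4 of the 16 fits that left out 1 library.

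Library totals ranged from 53169437 to 79404714 counts. The targeted transcript was lower in KO sham (0.297 to 0.553 CPM, the counts scaled to a common library size) than in Ctrl sham (3.24 to 3.86 CPM). In KO TAC it was at 0.276 to 0.371 CPM in 3 libraries and at 4.55 CPM in the library labelled KO TAC 4, within the Ctrl TAC range of 2.69 to 8.02 CPM, so that library went against its label. Fold changes of the 6 genes that involve KO TAC are therefore also given without it, and the related lists were tested again without it, a choice made after seeing the data. Ctrl TAC 2 stood apart from the other libraries on the second principal component, at -62.5. The 9 cardiomyocyte markers summed to 28658 CPM or more in every library.

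For the tests, a log2 fold change is given with its standard error (SE), and a gene is called when its Benjamini-Hochberg adjusted p over all 18275 genes from the edgeR quasi-likelihood test was under 0.05. Levels are CPM on effective library sizes, and comparisons of level between genes use CPM per kilobase of annotated exon. In tissue RNA, fewer cells of a type and less RNA per cell cannot be told apart.

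After TAC, 3 of the 6 genes were called in Ctrl, where 20.0% of all genes tested were called, 10.4% higher and 9.60% lower. Slc16a3 was higher, and Acat1 and Slc16a7 were lower. In KO 5 of the 6 were called, where 34.3% of all genes were called, 17.8% higher and 16.5% lower. The median log2 fold change over the 6 was -0.08 in Ctrl and -0.11 in KO, beside medians of 0.00 over all genes tested in both. The comparisons of TAC against sham use separate mice in the 2 genotypes.

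**Figure D1:**
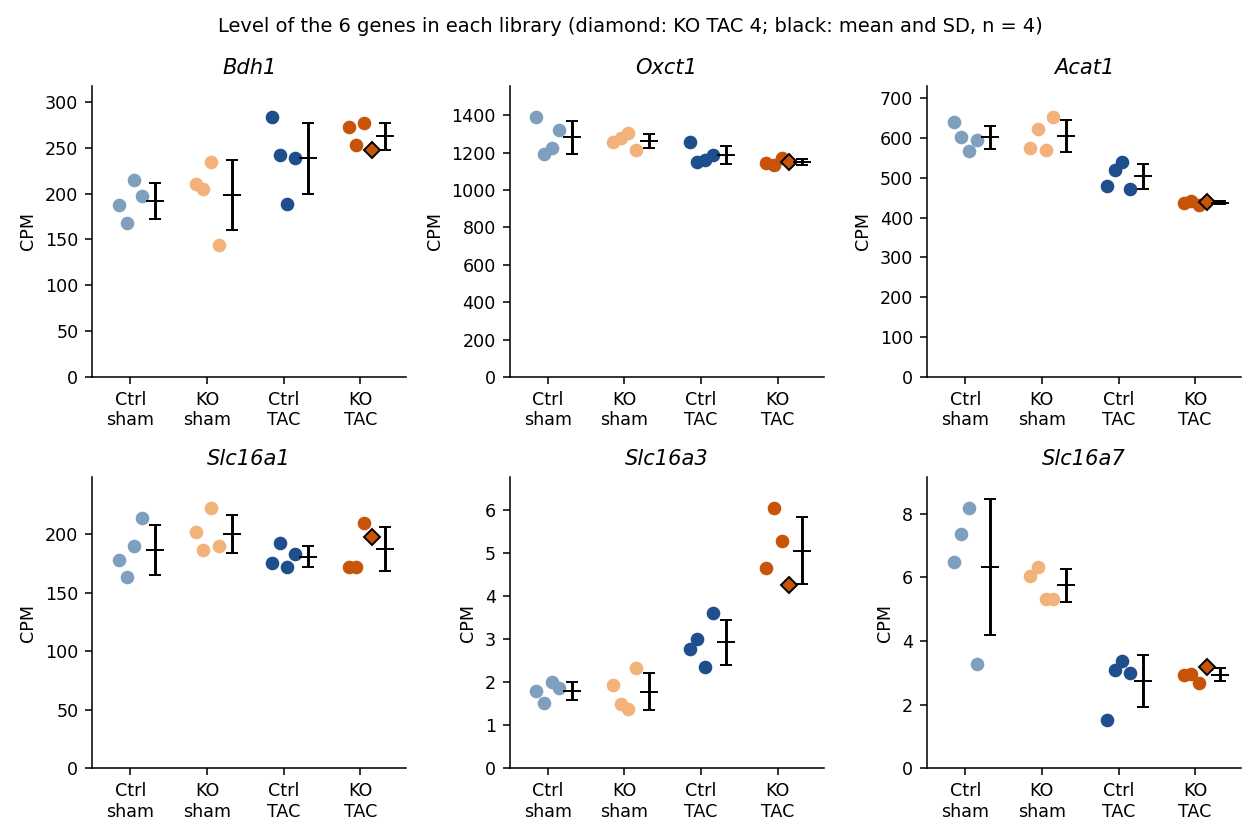
CPM of each gene (vertical axis, from 0, a separate scale for each gene) in every library of the 4 groups. Points are libraries, the diamond is the library labelled KO TAC 4, and the black bars are the mean and SD of 4 libraries. The 4 KO TAC points of Slc16a3 lie between 4.26 and 6.04 CPM, above all other libraries, and the Slc16a1 points of the 4 groups overlap.

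The enzymes come first, in the order of the pathway. Bdh1 (ENSMUSG00000046598, chromosome 16, 31422280 to 31458901, forward strand, GRCm38) stood at 187, 168, 215 and 197 CPM in Ctrl sham and at 284, 242, 189 and 239 CPM in Ctrl TAC. In KO sham it stood at 210.0, 206, 234 and 144 CPM and in KO TAC at 273, 254, 277 and 247 CPM. In Ctrl the library at 189 CPM fell inside the sham range, whereas in KO every TAC library was above every sham library.

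The mean of Bdh1 went from 192 ± 19.4 to 239 ± 38.8 CPM (SD, n = 4) in Ctrl, or 0.31 on the log2 scale (SE 0.13, adjusted p = 0.116), which was not called. In KO it went from 198 ± 38.3 to 262 ± 14.4 CPM, and this rise was called (log2 0.40, SE 0.13, 1.32-fold, adjusted p = 0.0289). The difference between the genotypes in the response was 0.09 on the log2 scale (95% interval -0.31 to 0.49, adjusted p = 0.914). Without the library labelled KO TAC 4 the rise in KO was 0.43 (adjusted p = 0.0372). It was not called without KO sham 4, the low library (0.27, adjusted p = 0.0653), without KO TAC 1 (adjusted p = 0.0638), without KO TAC 3 (adjusted p = 0.0722) or with no filter on low counts beyond 1 count (adjusted p = 0.0629). The difference in Ctrl was called without Ctrl TAC 3 (0.41, adjusted p = 0.0330), without KO sham 4 (adjusted p = 0.0357) or with a term for animal numbers that start with 33 (0.39, adjusted p = 0.0317). With a term for the series of the animal numbers it was 0.48 and was not called (adjusted p = 0.0668). Exons of Bdh1 share 533 bases with the antisense gene Gm15743, whose counts were 0.934% to 1.83% of those of Bdh1.

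Oxct1 (ENSMUSG00000022186, chromosome 15, 4026383 to 4155344, forward strand) was the most abundant of the 6. It stood at 1389.9, 1193, 1222 and 1319 CPM in Ctrl sham and at 1256, 1150.2, 1159.9 and 1188 CPM in Ctrl TAC. In KO sham its levels were 1257, 1278, 1305 and 1215 CPM, and in KO TAC they were 1147, 1134, 1169 and 1150.2 CPM. The ranges overlapped in Ctrl and did not in KO.

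The fall of Oxct1 was small. It was not called in Ctrl (log2 -0.11, SE 0.05, adjusted p = 0.153), and was called in KO (log2 -0.14, SE 0.05, a change of -9.0%, adjusted p = 0.0469). The difference between the genotypes in the response was -0.03 on the log2 scale (95% interval -0.18 to 0.12, adjusted p = 0.928). The call in KO held in 6 of the 16 fits that left out 1 library (adjusted p from 0.0254 to 0.113). It was lost without Ctrl sham 4, KO sham 1, 2 or 3, Ctrl TAC 3 or 4, or any 1 of the KO TAC libraries, including the library labelled KO TAC 4 (log2 -0.14, adjusted p = 0.0817). It was also lost with no filter beyond 1 count (adjusted p = 0.113), without Ctrl TAC 2 and KO TAC 4 together (adjusted p = 0.0783), and with terms for the series of the animal numbers (adjusted p = 0.0876) or for numbers that start with 33 (adjusted p = 0.388). The exact permutation test of the 8 KO libraries gave p = 0.0286, the smallest that 70 relabellings allow, and 0.0762 after adjustment over 24 comparisons. Exons of Oxct1 share 467 bases with BC037032 on the other strand, whose counts were 0.312% to 0.58% of those of Oxct1.

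Acat1 (ENSMUSG00000032047, chromosome 9, 53580522 to 53610382, reverse strand) stood at 639, 602, 568 and 595 CPM in Ctrl sham and at 480.4, 519, 541 and 472 CPM in Ctrl TAC. In KO sham it stood at 573, 622, 569.8 and 652 CPM and in KO TAC at 436, 441, 432 and 438 CPM. Every TAC library was below every sham library, and every KO TAC library was below every Ctrl TAC library.

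The fall of Acat1 with TAC was -0.26 on the log2 scale in Ctrl (SE 0.06, a change of -16.3%, adjusted p = 0.00299) and -0.47 in KO (SE 0.06, a change of -27.7%, adjusted p = 4.01e-06). Without the library labelled KO TAC 4 the fall in KO was -0.47 (adjusted p = 2.71e-05). Both calls held in all 25 alternatives. The difference between KO TAC and Ctrl TAC was -0.20 (95% interval -0.32 to -0.09) and was not called (adjusted p = 0.0548). It was called without Ctrl sham 1 (adjusted p = 0.0484), without Ctrl TAC 4 (adjusted p = 0.0355), by DESeq2 (adjusted p = 0.0126) and with at least 10 counts required in every library. The difference between the genotypes in the response was -0.21 (unadjusted p = 0.0148, adjusted p = 0.331). With the library labelled KO TAC 4 left out, these differences were -0.20 (adjusted p = 0.0941) and -0.21 (adjusted p = 0.364).

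The enzymes did not keep 1 ratio to each other. Per kilobase of exon, Oxct1 had the highest level in each group, Acat1 followed and Bdh1 came after it. The ratio of Bdh1 to Acat1 averaged 0.310 ± 0.0428 in Ctrl sham, 0.321 ± 0.0784 in KO sham, 0.462 ± 0.0968 in Ctrl TAC and 0.581 ± 0.0357 in KO TAC (SD, n = 4). The ratio of Acat1 to Oxct1 averaged 0.463 and 0.472 in the sham groups, 0.418 in Ctrl TAC and 0.374 in KO TAC. These ratios describe the libraries and were not tested.

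Among the transporters, Slc16a1 was far more abundant than the other two. The promoters of Slc16a3, the transporter that rose, and of Slc16a1, the one that passed no test, are printed to show which letters they share, and that of Oxct1 to compare an enzyme gene. The sequences are from RefSeq (GRCm38.p6), 250 bases before to 50 bases after the start, 5′ to 3′ on the strand of the gene. Capitals mark ACGTG, the core of the hypoxia response element, and GGGCGG, the GC box, on either strand. The windows are chr11:120948817-120949116 for Slc16a3, chr3:104638414-104638713 for Slc16a1 and chr15:4026178-4026477 for Oxct1, all on the forward strand.
Slc16a3: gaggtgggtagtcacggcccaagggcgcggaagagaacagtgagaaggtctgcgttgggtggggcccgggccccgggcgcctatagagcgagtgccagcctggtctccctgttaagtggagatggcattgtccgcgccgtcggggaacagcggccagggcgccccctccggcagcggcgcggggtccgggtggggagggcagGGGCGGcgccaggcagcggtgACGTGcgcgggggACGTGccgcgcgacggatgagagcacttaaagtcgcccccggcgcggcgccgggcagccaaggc
Slc16a1: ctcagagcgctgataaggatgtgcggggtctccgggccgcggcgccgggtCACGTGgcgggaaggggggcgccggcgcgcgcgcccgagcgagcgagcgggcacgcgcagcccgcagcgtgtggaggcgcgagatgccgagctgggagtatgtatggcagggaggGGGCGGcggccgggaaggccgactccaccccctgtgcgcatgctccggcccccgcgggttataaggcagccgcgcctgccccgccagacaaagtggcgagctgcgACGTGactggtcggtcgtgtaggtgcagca
Oxct1: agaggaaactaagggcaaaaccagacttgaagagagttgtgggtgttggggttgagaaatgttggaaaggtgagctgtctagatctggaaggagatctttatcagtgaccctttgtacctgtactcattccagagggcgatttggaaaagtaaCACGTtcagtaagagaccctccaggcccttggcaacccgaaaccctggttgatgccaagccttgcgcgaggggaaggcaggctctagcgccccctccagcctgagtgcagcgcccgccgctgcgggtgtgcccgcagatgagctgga

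Slc16a3 held ACGTG at 27 and 14 bases before the start and a GC box at 48 bases before it. Slc16a1 held CACGTG, an E-box that contains ACGTG on both strands, at 200 bases before the start, a further ACGTG at base 21 after it and a GC box at 85 bases before it. Oxct1 held ACGTG once, on the other strand, 97 bases before the start. Of 32851 mouse promoters of this length, 19.6% held ACGTG, 2.69% held it at separate places at least 2 times, 7.15% held CACGTG and 35.7% held GGGCGG. The GC content was 73.3% in the Slc16a3 window and 73.7% in the Slc16a1 window, beside a median of 52.7% over all promoters. Of the 2 listed Bdh1 promoters, 1 held a GC box and neither held the hypoxia core. The half-site of estrogen-related receptors (AAGGTCA) was in none of these windows and in 4.72% of all promoters. No promoter window of Acat1 or Slc16a7 was available, so those genes were not searched. A match is a run of letters and was not tested as a binding site.

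Slc16a1 (ENSMUSG00000032902, chromosome 3, 104638668 to 104658462, forward strand) stood at 178, 163, 190.3 and 214 CPM in Ctrl sham and at 176, 193, 172 and 183 CPM in Ctrl TAC. In KO sham it stood at 202, 186, 222 and 190.0 CPM and in KO TAC at 172, 172, 209 and 197 CPM. The 4 groups overlapped.

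The log2 fold change of Slc16a1 with TAC was -0.04 in Ctrl (95% interval -0.21 to 0.13, adjusted p = 0.779) and -0.09 in KO (95% interval -0.27 to 0.08, adjusted p = 0.414). Between KO TAC and Ctrl TAC it was 0.05 (95% interval -0.12 to 0.22). Without the library labelled KO TAC 4 the change in KO was -0.12 (adjusted p = 0.358) and the difference between the TAC groups was 0.03 (adjusted p = 0.915). Of the summed level per kilobase of the 3 transporters, Slc16a1 made up 97.9% ± 0.537 in Ctrl sham, 98.2% ± 0.278 in KO sham, 98.1% ± 0.244 in Ctrl TAC and 97.2% ± 0.485 in KO TAC (SD, n = 4).

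Slc16a3 (ENSMUSG00000025161, chromosome 11, 120948480 to 120960868, forward strand) was low, with 80 to 372 counts per library. It stood at 1.80, 1.52, 2.01 and 1.86 CPM in Ctrl sham and at 2.76, 3.00, 2.36 and 3.61 CPM in Ctrl TAC. In KO sham it stood at 1.93, 1.49, 1.38 and 2.32 CPM and in KO TAC at 4.65, 6.04, 5.28 and 4.26 CPM. In each genotype every TAC library was above every sham library, and the KO TAC libraries were above those of Ctrl TAC.

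The rise of Slc16a3 with TAC was 0.71 on the log2 scale in Ctrl (SE 0.17, 1.64-fold, adjusted p = 0.00663) and 1.504 in KO (SE 0.17, 2.84-fold, adjusted p = 2.46e-06). Without the library labelled KO TAC 4 the rise in KO was 1.58 (adjusted p = 5.35e-06). Both calls held in all 25 alternatives. The summed fibroblast and macrophage markers were also higher with TAC in each genotype. Between KO TAC and Ctrl TAC the fibroblast sums did not overlap, whereas the macrophage sums did. The 8 fibroblast markers summed to 579 to 706 CPM in Ctrl sham, 609.96 to 645 CPM in KO sham, 1123 to 1594 CPM in Ctrl TAC and 1828 to 1995 CPM in KO TAC, with 5 of the 8 called higher with TAC in Ctrl and all 8 in KO. The 8 macrophage markers summed to 93.8 to 123 CPM in Ctrl sham, 85.4 to 104 CPM in KO sham, 129 to 137 CPM in Ctrl TAC and 119 to 151 CPM in KO TAC, with 4 called higher in Ctrl and 7 in KO. The macrophage marker Cd163 was at -0.27 in KO, not called (adjusted p = 0.155). Of all genes tested, 10.4% were called higher in Ctrl and 17.8% in KO. No marker of either list was at 0 in a whole group. Their part in the rise of Slc16a3 was not tested.

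Slc16a7 (ENSMUSG00000020102, chromosome 10, 125219270 to 125389465, reverse strand) was also low, with 87 to 483 counts per library. It stood at 6.49, 7.36, 8.16 and 3.27 CPM in Ctrl sham and at 1.53, 3.08, 3.36 and 3.01 CPM in Ctrl TAC. In KO sham it stood at 6.04, 6.31, 5.30 and 5.31 CPM and in KO TAC at 2.93, 2.97, 2.67 and 3.18 CPM. The groups did not overlap in KO, and in Ctrl only the sham library at 3.27 CPM reached the TAC range.

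The fall of Slc16a7 with TAC was -1.20 on the log2 scale in Ctrl (SE 0.24, a change of -56.5%, adjusted p = 0.00188) and -0.97 in KO (SE 0.24, a change of -48.8%, adjusted p = 0.00454). Without Ctrl sham 4, the low library, the fall in Ctrl was -1.41 (adjusted p = 4.37e-05). In KO it was -1.01 (adjusted p = 0.010) when the library labelled KO TAC 4 was left out. Both calls held in all 25 alternatives. The exact permutation test over the 8 Ctrl libraries gave p = 0.0571, and 0.137 after adjustment over 24 comparisons. Exons of Slc16a7 share 179 bases with Gm47862, whose counts were at most 3.28% of those of Slc16a7. The summed cardiomyocyte markers ranged from 33522 to 36644 CPM in Ctrl sham, 34669 to 35911 CPM in KO sham, 31302 to 33499 CPM in Ctrl TAC and 28658 to 29592 CPM in KO TAC. Of the 9 markers, 4 were called lower and 2 higher with TAC in Ctrl, and 6 lower and 1 higher in KO. Of all genes tested, 9.60% were called lower and 10.4% higher in Ctrl, and 16.5% and 17.8% in KO. The part of these markers in the falls of Slc16a7, Acat1 and Oxct1 was not tested.

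Per kilobase of exon, the mean order of the low transporters turned with TAC in each genotype. In Ctrl, Slc16a3 and Slc16a7 averaged 0.338 ± 0.0390 and 0.534 ± 0.181 in sham, and 0.551 ± 0.0983 and 0.232 ± 0.0695 in TAC (CPM per kilobase, SD, n = 4). In KO they averaged 0.334 ± 0.0814 and 0.485 ± 0.0435 in sham, and 0.951 ± 0.147 and 0.248 ± 0.0178 in TAC. In CPM without the length, their Ctrl TAC means were close, at 2.93 ± 0.523 and 2.74 ± 0.823. The ratio of Slc16a3 to Slc16a7 ranged from 0.458 to 1.27 in Ctrl sham, 0.524 to 0.973 in KO sham, 1.56 to 4.02 in Ctrl TAC and 2.98 to 4.53 in KO TAC. The sham library above 1 was Ctrl sham 4. With the longest annotated transcript as the length, 1 KO sham library also passed 1, at 1.11, and the TAC ratios remained above 1. These levels and ratios describe the libraries and were not tested.

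**Figure D2:**
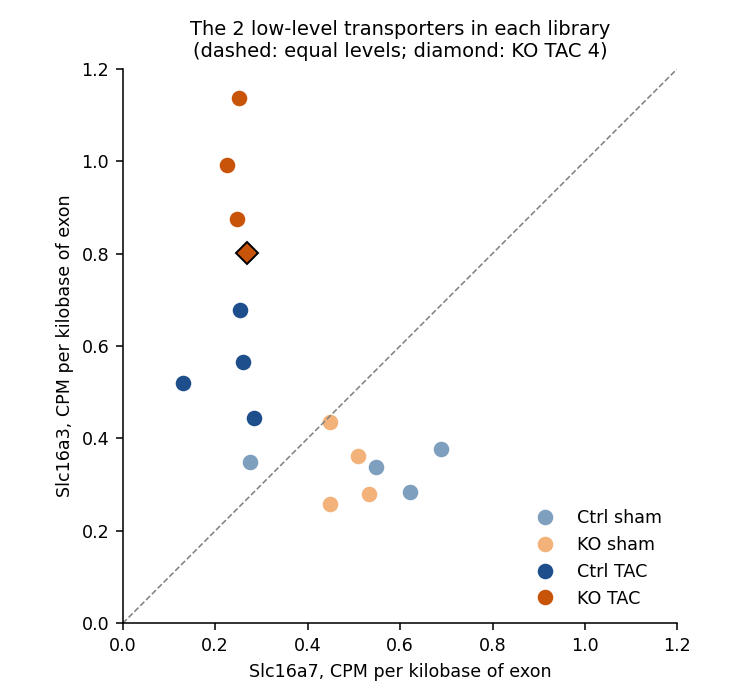
CPM per kilobase of exon of Slc16a3 (vertical axis) against Slc16a7 (horizontal axis), 1 point per library, with the dashed line at equal levels. All TAC libraries lie above the line, and of the sham libraries only Ctrl sham 4, at a ratio of 1.27, does.

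Over all 16 libraries the mean levels per kilobase of exon were 330 for Oxct1, 143 for Acat1, 57.3 for Bdh1, 42.7 for Slc16a1, 0.543 for Slc16a3 and 0.375 for Slc16a7. Bdh1 and Slc16a1 were neighbours whose ranges overlapped in Ctrl sham (49.4 ± 5.0 and 42.1 ± 4.81) and in KO sham (51.0 ± 9.86 and 45.3 ± 3.67). In Ctrl TAC Bdh1 was at 61.4 ± 9.97 and Slc16a1 at 40.9 ± 2.08, and in KO TAC they were at 67.5 ± 3.71 and 42.4 ± 4.23, with no overlap in either group. The ranges of Slc16a3 and Slc16a7 overlapped in Ctrl sham and in none of the other groups.

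The comparison of genotypes asks whether loss of Cardinal changes these genes without and with pressure overload. In sham hearts 0 of 18275 genes were called by edgeR (0%), with 479 at an unadjusted p under 0.05, and DESeq2 called 3. None of the 6 genes was called by either tool. The smallest unadjusted p among them was 0.223, for Slc16a1 (log2 0.10, 95% interval -0.07 to 0.28). The intervals of KO sham against Ctrl sham were -0.11 to 0.12 for Acat1, -0.13 to 0.09 for Oxct1, -0.24 to 0.33 for Bdh1, -0.38 to 0.36 for Slc16a3 and -0.63 to 0.35 for Slc16a7.

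After TAC 489 of all genes were called between the genotypes (2.68%), 1.36% higher in KO and 1.32% lower, and 1 of the 6 was called. Mean Slc16a3 was 5.06 ± 0.780 CPM in the KO mice against 2.93 ± 0.523 CPM in the Ctrl mice (SD, n = 4), and the fit gave 0.78 on the log2 scale (SE 0.16, 95% interval 0.44 to 1.13, 1.72-fold, adjusted p = 0.020). The exact permutation test gave p = 0.0286, the smallest possible, and 0.0762 after adjustment over 24 comparisons. Of the fibroblast markers 2 of 8 were called higher in KO TAC (1 when the library labelled KO TAC 4 was left out), and of the macrophage markers none was called higher and 1 lower. Their part in this difference was not tested.

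This call depended on which libraries entered the fit. Without the library labelled KO TAC 4 the difference was 0.86 (adjusted p = 0.0212). It was lost without Ctrl TAC 2 (0.79, adjusted p = 0.0643), Ctrl TAC 3 (adjusted p = 0.0631), KO TAC 2 (adjusted p = 0.0691) or KO TAC 3 (adjusted p = 0.0708), and held in the other 12 fits that left out 1 library. It was also lost without both Ctrl TAC 2 and KO TAC 4 (0.87, adjusted p = 0.0541) and with a term for the leading digits of the animal numbers (0.72, adjusted p = 0.129). Among the TAC mice whose numbers start with 3, Slc16a3 was at 2.76 CPM in the Ctrl library and at 4.65 to 6.04 CPM in the KO libraries. Among those whose numbers start with 25, it was at 2.36 to 3.61 CPM in the Ctrl libraries and at 4.26 CPM in the library labelled KO TAC 4. What these digits stand for is not given in the labels.

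**Figure D3:**
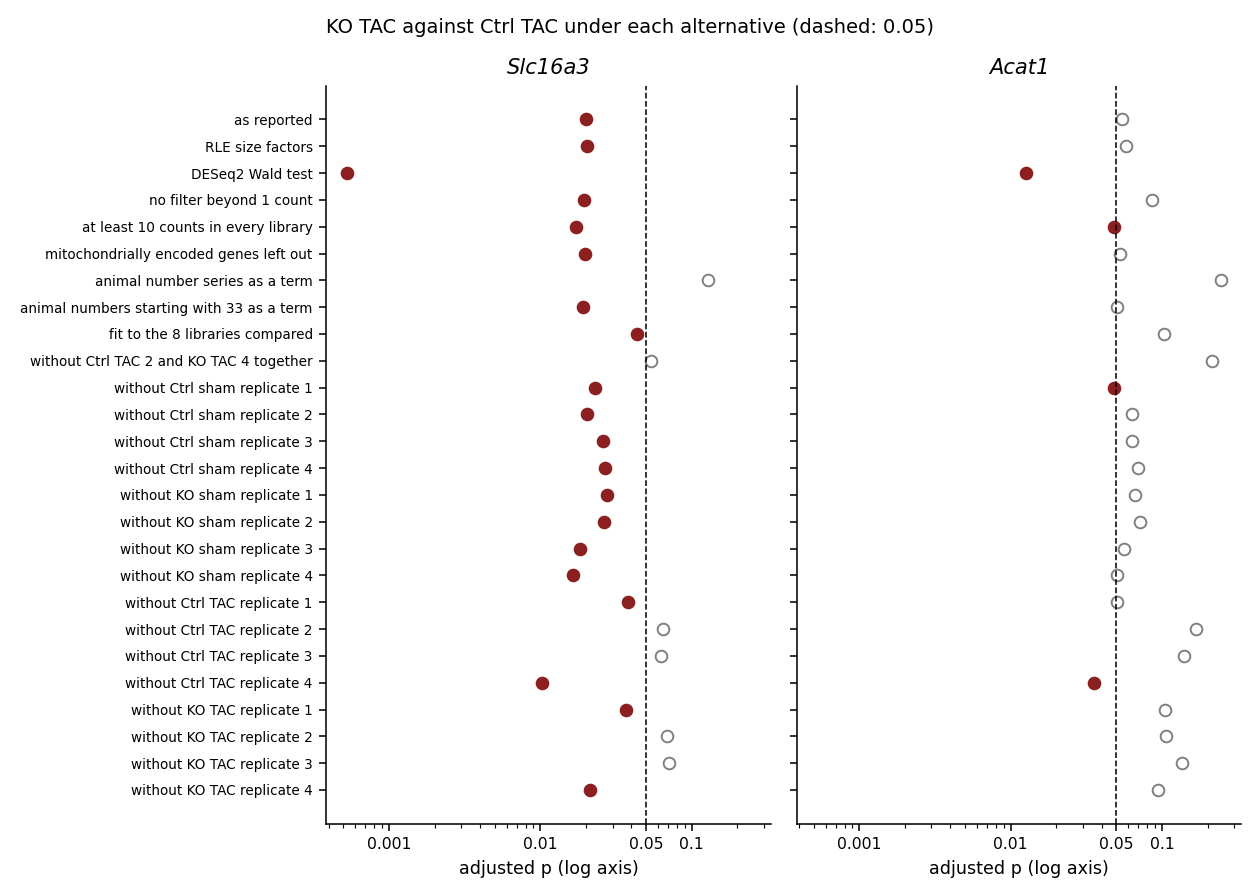
Adjusted p (horizontal log axis) of KO TAC against Ctrl TAC for Slc16a3 and Acat1 under the reported fit and 25 alternatives, with the dashed line at 0.05 and filled points below it. For Slc16a3 the leave-one-out values run from 0.0103 to 0.0708. For Acat1 they run from 0.0355 to 0.168.

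The other genes differed less between KO TAC and Ctrl TAC. The log2 fold change was 0.14 for Bdh1 (95% interval -0.15 to 0.42), -0.05 for Oxct1 (-0.15 to 0.06) and 0.09 for Slc16a7 (-0.42 to 0.61). In the test of whether TAC acted differently in the genotypes, 0.0109% of all genes were called and none of the 6 was, by edgeR or by DESeq2. Slc16a3 had an unadjusted p of 0.00418 (0.79, SE 0.24, adjusted p = 0.249). Slc16a3 was one of 2 members, with Acat1, at an unadjusted p under 0.05 in this test. Of the 18275 genes tested, 2024 were under the same unadjusted threshold. When the library labelled KO TAC 4 was left out, the differences between the TAC groups were 0.17 for Bdh1 (adjusted p = 0.605), -0.05 for Oxct1 (adjusted p = 0.719) and 0.05 for Slc16a7 (adjusted p = 0.951), and those between the responses were 0.87 for Slc16a3 (adjusted p = 0.224), 0.12 for Bdh1 (adjusted p = 0.880), -0.03 for Oxct1 (adjusted p = 0.934), -0.076 for Slc16a1 (adjusted p = 0.870) and 0.19 for Slc16a7 (adjusted p = 0.892).

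**Figure D4:**
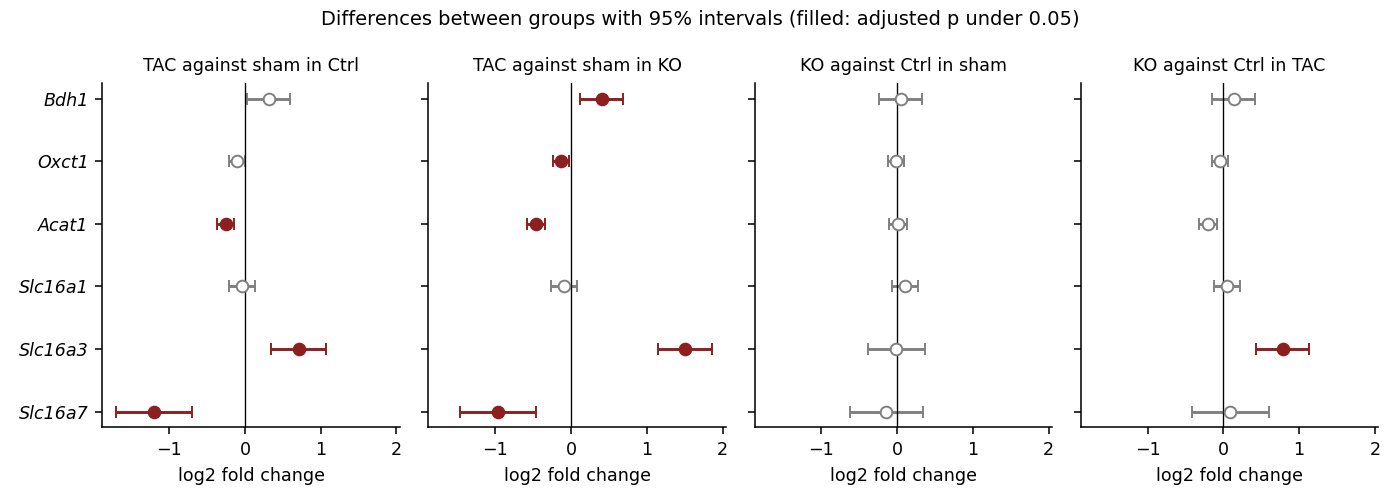
Log2 fold change (horizontal axis) of each gene in 4 comparisons, with bars for the 95% interval and filled points for an adjusted p under 0.05. After TAC the Slc16a3 and Slc16a7 points lie on opposite sides of 0 in both genotypes, and in sham every interval of KO against Ctrl includes 0.

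Around these genes, a list of ketone enzymes, thiolases and enzymes of fatty acid oxidation held more genes that fell than rose after TAC. Of 9 tested, 1 rose and 4 fell in Ctrl, where 10.4% of all genes tested rose and 9.60% fell. In KO 2 rose and 5 fell, beside 17.8% and 16.5% of all genes. The same background holds for each list that follows. The fallers in both genotypes were Hadha and Hadhb, the subunits of the mitochondrial trifunctional protein of fatty acid oxidation (log2 -0.53 and -0.51 in Ctrl, -0.80 and -0.68 in KO), Hadh (-0.40 and -0.81) and the thiolase Acaa2 (-0.66 and -1.16). In KO, Acaa1a fell as well (-0.26). Acat2 and Acat3 were called in neither genotype, and the ketone enzymes that were called, Aacs and Bdh2, rose. Aacs, the cytosolic enzyme that activates acetoacetate for lipid synthesis, rose by 0.57 in Ctrl and 0.49 in KO. Bdh2, a cytosolic relative of the dehydrogenases, rose by 1.71 in KO (adjusted p = 0.00146) from a level of 0.208 CPM. Between KO TAC and Ctrl TAC, Hadh (-0.42), Acaa2 (-0.54) and Hadha (-0.31) were lower, where 1.32% of all genes were called lower and 1.36% higher. Without the library labelled KO TAC 4 the counts with TAC in KO were the same, and Hadha was no longer called between the TAC groups (-0.31, adjusted p = 0.0688).

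The other transporters of the SLC16 family numbered 11 tested, of which none rose and 2 fell in Ctrl, and none rose and 3 fell in KO. These counts of calls were near or below the background of 20.0% called in Ctrl and 34.3% in KO. Slc16a10, which carries aromatic amino acids, fell by 0.60 in Ctrl and 0.67 in KO on the log2 scale. Slc16a8, which encodes MCT3, fell by 0.70 and 1.25. Slc16a9, a carnitine transporter, fell by 0.45 in KO (adjusted p = 0.0190) and was at -0.39 in Ctrl (adjusted p = 0.0598), not called. Its call in KO was lost when the library labelled KO TAC 4 was left out (-0.39, adjusted p = 0.0628). None differed between KO TAC and Ctrl TAC at an adjusted p under 0.05. Of 4 tested genes for chaperones, sodium-coupled transporters and receptors, 1 fell in each genotype, a count that is near the same background. It was Bsg, which encodes the chaperone that brings MCT1 and MCT4 to the membrane (-0.24 in Ctrl, adjusted p = 0.0228, and -0.25 in KO, adjusted p = 0.0107). Emb, the chaperone of MCT2, was at -0.04 in Ctrl and -0.03 in KO, not called in either.

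Among 5 tested genes for lactate and pyruvate handling, none rose and 3 fell in Ctrl, where 10.4% of all genes rose and 9.60% fell, and 1 rose and 4 fell in KO, beside 17.8% and 16.5%. Ldhb, the heart subunit of lactate dehydrogenase, fell by 0.36 in Ctrl and 0.62 in KO. Ldha, the muscle subunit, was at 0.05 in Ctrl, not called, and rose by 0.15 in KO (adjusted p = 0.0282). Ldhd, the mitochondrial D-lactate dehydrogenase, fell by 0.41 and 0.88. Mpc2, a subunit of the mitochondrial pyruvate carrier, fell by 0.18 and 0.42, and Mpc1, its partner, fell by 0.19 in KO (adjusted p = 0.0477) and was at -0.20 in Ctrl (adjusted p = 0.0603), not called. Mpc1 in KO was at -0.18 and not called when the library labelled KO TAC 4 was left out (adjusted p = 0.111). Ldhd (-0.44) and Ldhb (-0.24) were lower in KO TAC than in Ctrl TAC.

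The next list held 7 genes that activate acetate and short- or medium-chain acids or exchange succinyl-CoA, the donor used by Oxct1. Of these, 1 rose and 6 fell in Ctrl, where 10.4% of all genes rose and 9.60% fell. In KO none rose and 6 fell, beside 17.8% and 16.5%. Suclg2, Suclg1 and Sucla2, the subunits of succinyl-CoA synthetase, fell by 0.44, 0.33 and 0.27 in Ctrl and by 0.51, 0.50 and 0.44 in KO. Acss1, the mitochondrial acetyl-CoA synthetase, fell by 0.53 and 0.84. Acss2, its nuclear and cytosolic relative, rose by 0.26 in Ctrl and was at 0.11 in KO, not called. Acsm5 fell by 0.98 and 1.79, and it and Acss1 were lower in KO TAC than in Ctrl TAC (-0.83 and -0.34). When the library labelled KO TAC 4 was left out, Acss3 was no longer called in KO (-0.82, adjusted p = 0.0521, from -0.87) and Acsm5 was no longer called between the TAC groups (-0.88, adjusted p = 0.0708). In sham hearts no gene of these lists was called between the genotypes.

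Whether counting used the strand is not given, so reads of these genes cannot be told apart from those of genes that overlap their exons on the other strand. The overlap was 2436 bases between Acss3 and Ppfia2, 2246 bases between Ldhd and Znrf1, 686 bases between Emb and Gm17509, and 480 bases between Mpc1 and 4930506C21Rik. Slc16a9 shares 491 bases with Gm7097 and 419 with Gm9877, and Acss2 shares 395 bases with Gss, 335 with Acss2os and 197 with Ggt7. Acat3 shares 571 bases with Tcp1, and Acaa1a shares 290 bases with Myd88. The overlap was 113 bases between Acss1 and E130215H24Rik, 104 bases between Acsm5 and Pdilt, and 75 bases between Hadha and Garem2. The counts of these partners were not set against those of the listed genes.

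**Figure D5:**
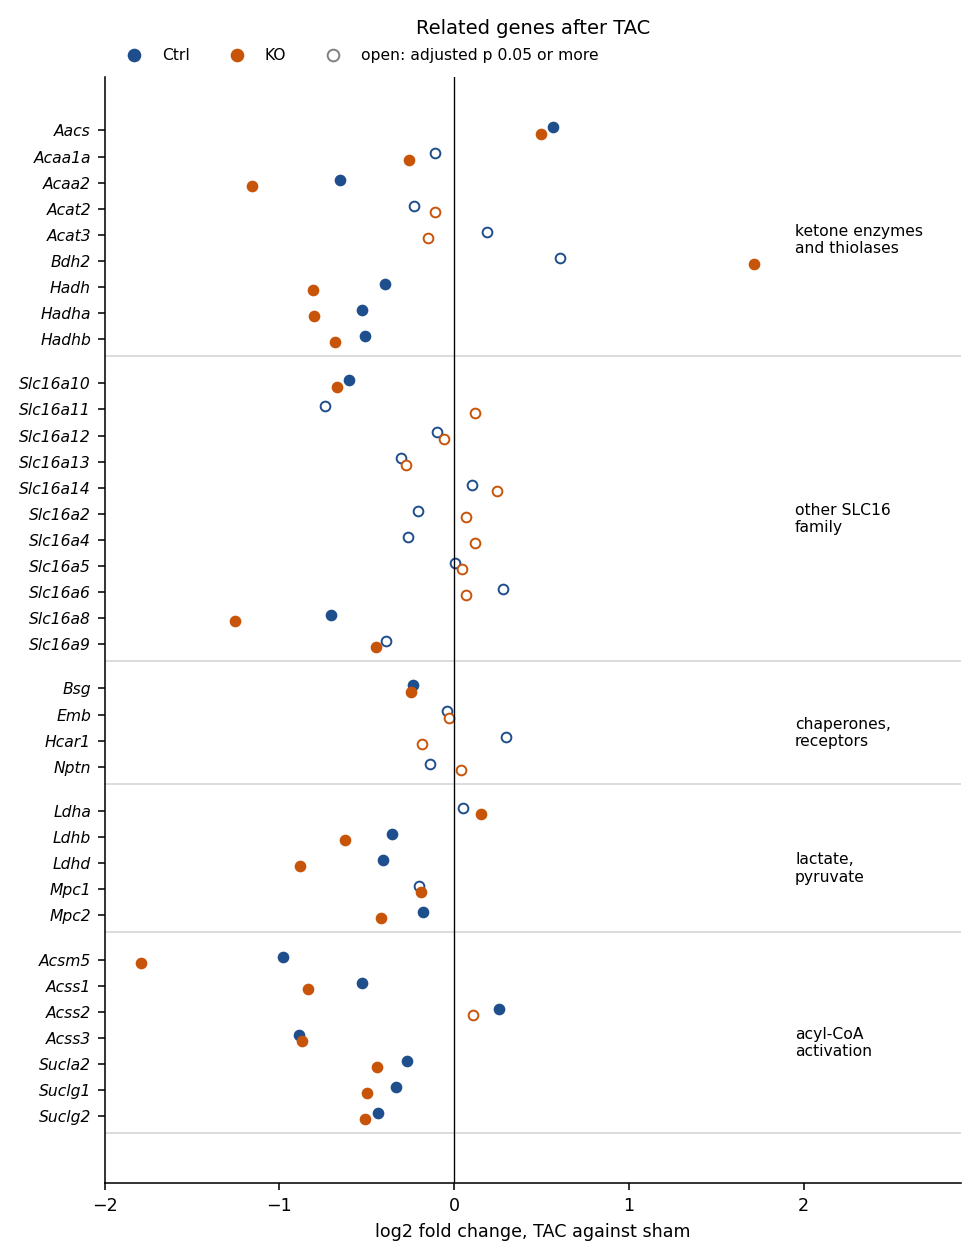
Log2 fold change of TAC against sham (horizontal axis) in Ctrl and KO for the 36 tested genes of the related lists, with open points for an adjusted p of 0.05 or more. In the group of acyl-CoA activation 6 of 7 genes fell in each genotype, whereas most other SLC16 transporters have open points.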

How the data were processed

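Hearts of 16 mice were sequenced as poly(A) RNA. The authors deposited raw read counts per Ensembl gene, 1 column per mouse, with no normalization. The submitters' processing notes name cutadapt 2.3, FastQC, HISAT2 2.1.0, edgeR 3.26.1 and GRCm38. The counting program, its annotation and its use of strand are not given in the sources used here.

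Columns were matched to mice by the animal number in the titles. Numbers pair no mice across groups. Symbols and exon lengths came from GENCODE M21 (55227 identifiers matched), and identifiers without a symbol held 0.00355% of counts. No columns held identical counts. All 16 libraries entered 1 model with a mean per group in edgeR 4.0.16 (R 4.3.3, TMM, filterByExpr, robust quasi-likelihood F test, two-sided), with Benjamini-Hochberg adjustment over 18275 genes and calls at an adjusted p under 0.05. SE is the log2 fold change over the square root of F. A 95% interval used the residual degrees of freedom plus the prior degrees of freedom of the quasi-likelihood fit.

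The members and related lists were chosen with earlier results of these data known. All 6 members are named with every library, and of each related list the genes called, at most the 8 with the smallest adjusted p in a comparison. For each member the 2 genes nearest in standardized log2 CPM are named. Alternatives were DESeq2 1.42.0, RLE size factors, other filters, mitochondrially encoded genes left out, terms for animal numbers, smaller fits and leaving out libraries. The test was checked on simulated counts. Some genes of the related lists are not reported here.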

Additional observations from a re-analysis of the deposited data

How the results depend on the processing

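The calls of Acat1, Slc16a3 and Slc16a7 after TAC kept their direction and stayed past the threshold in both genotypes under all 25 alternatives. Animal numbers that start with 25 occurred only in TAC libraries, namely Ctrl TAC 2, Ctrl TAC 3, Ctrl TAC 4 and KO TAC 4. Numbers that start with 33 occurred only in sham libraries, namely Ctrl sham 4, KO sham 1, KO sham 2 and KO sham 3. Fits with terms for these numbers therefore separate them from surgery only in part. The number of the 6 genes called after TAC in KO, reported as 5, was 3 with no filter beyond 1 count and 3 to 5 when 1 library was left out. Between KO TAC and Ctrl TAC, reported as 1, it was 2 with DESeq2, 2 with at least 10 counts in every library, 0 with a term for the animal number series, 0 without Ctrl TAC 2 and KO TAC 4 together, and 0 to 2 when 1 library was left out. The gene added was Acat1 (adjusted p = 0.0126 with DESeq2 and 0.0481 with at least 10 counts). In all cases the cause was not tested. Values whose sign turned were never called. With a term for animal numbers that start with 33, Slc16a1 with TAC was 0.0085 in Ctrl and 0.046 in KO, Bdh1, Slc16a3 and Slc16a7 in KO sham against Ctrl sham were -0.13, 0.098 and 0.17, and the genotype by surgery differences of Oxct1, Slc16a1 and Slc16a7 were 0.0049, 0.037 and -0.072. With the series term the genotype by surgery difference of Bdh1 was -0.018. Leaving out 1 library, Slc16a1 with TAC ran from -0.10 to 0.030 in Ctrl. KO sham against Ctrl sham ran from -0.040 to 0.17 for Bdh1, -0.052 to 0.022 for Oxct1, -0.032 to 0.039 for Acat1, -0.16 to 0.092 for Slc16a3 and -0.35 to 0.0026 for Slc16a7. KO TAC against Ctrl TAC ran from -0.0037 to 0.092 for Slc16a1 and -0.098 to 0.20 for Slc16a7. The genotype by surgery difference ran from -0.038 to 0.18 for Bdh1, -0.072 to 0.0047 for Oxct1 and -0.12 to 0.0074 for Slc16a1. No paired analysis was possible because the titles number animals, not pairs. Over all genes, DESeq2 called 1183 between KO TAC and Ctrl TAC where edgeR called 489, and 132 in the genotype by surgery difference where edgeR called 2. Slc16a3 and Slc16a7 had the fewest counts, 80 to 483 a library, and the widest intervals.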

Other observations

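The genes whose levels followed each member most closely over the 16 libraries were ranked by the root mean square difference of standardized log2 CPM, among 10113 genes. Acat1 lay closest to Acadm, the medium-chain acyl-CoA dehydrogenase (difference 0.0983, correlation within groups 0.976), and to Eci1, an isomerase of fatty acid oxidation (0.136 and 0.912). The geometric mean of Acadm was 1140.3 CPM in Ctrl sham, 1153 in KO sham, 853 in Ctrl TAC and 711 in KO TAC. Oxct1 lay closest to Ndufa10, a subunit of respiratory complex I (0.440), and to Ubxn2a (0.454). Slc16a3 lay closest to Nipsnap3b (0.262, correlation within groups 0.868) and to Ltbp3, a binding protein of latent TGF-beta (0.297 and 0.572). Slc16a7 lay closest to Tmtc4 (0.388) and Zfp68 (0.417), Bdh1 to Syt12 (0.364) and Slc39a6 (0.416), and Slc16a1 to Ago2 (0.559) and Nup62 (0.633). These values describe likeness over libraries that share their groups and depth, and carry no test.

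The spread between mice was smallest in KO TAC for Bdh1, Oxct1, Acat1 and Slc16a7. The coefficient of variation of Acat1 was 0.791% in KO TAC, beside 4.87% in Ctrl sham, 6.58% in KO sham and 6.43% in Ctrl TAC. For Oxct1 it was 1.23% in KO TAC, beside 7.05%, 2.98% and 4.03% in the same order. The library labelled KO TAC 4, at 438 CPM of Acat1 and 1150.2 CPM of Oxct1, fell inside the range of the other 3 KO TAC libraries for both genes. Whether the spread differed between groups was not tested.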
